A study of Mus musculus with 13 samples.

Results

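The genes described are 9 transcription factors that specify and maintain midbrain dopamine neurons: Foxa1, Foxa2, Lmx1a, Lmx1b, Nr4a2, Pitx3, En1, En2 and Otx2. The set is a list of gene names and holds 9 of the 26264 genes in the deposited table. The tissue was punched from the ventral tegmental area (VTA) of adult mice of strain C57BlJ/6, a midbrain region rich in dopamine neurons. A virus carrying Setd7, a lysine methyltransferase of histone H3 and other proteins, or green fluorescent protein (GFP) was given at postnatal day 14, and part of the animals then met social defeat stress as adults. Total RNA depleted of ribosomal RNA was sequenced. The groups were GFP control (GFP virus, no defeat, n = 3, 1 female), GFP defeat (GFP virus, defeat, n = 4, 2 female), Setd7 control (Setd7 virus, no defeat, n = 4, 2 female) and Setd7 defeat (Setd7 virus, defeat, n = 2, 1 female). All 4 groups share the early viral injection, so none shows uninjected tissue. The labels name neither the promoter that drives the virus nor the adult age, and they do not say that each of the 13 libraries is a separate animal, so p-values measure the spread between these samples only. The data column of Setd7 defeat replicate 1 carries a longer number than its title, so it may hold more than a single animal or run.

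Midbrain dopamine neurons arise from the floor plate of the embryonic midbrain, where Lmx1a, Lmx1b, Foxa1, Foxa2 and Otx2 set up the progenitor field. En1 and En2 mark the tissue around the midbrain-hindbrain border, and Nr4a2 and Pitx3 switch on in the newborn neurons and drive genes of dopamine synthesis and transport such as Th. Several of the factors stay on in the adult, where they are known for keeping dopamine neurons alive and in their identity. Some of them are also used elsewhere: Lmx1b and the engrailed genes in serotonin neurons, Lmx1a and Foxa1 in the nuclei in front of the VTA, and Otx2 in choroid plexus and tectum.

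Libraries held 26.5 to 50.8 Mreads (mega-reads) assigned to genes. Setd7 itself read 28587 to 158681 normalized counts (reads divided by a size factor for the library's depth) in Setd7 libraries and 10888 to 14538 in GFP libraries. Th, tyrosine hydroxylase, was 2508 to 3392 in replicates 2 and 3 of GFP control and replicate 1 of GFP defeat, termed the 3 low-Th libraries, and 9760 to 19111 in the other 10. Tcf7l2, abundant in thalamus, was 6575 to 9559 in replicates 2 and 3 of GFP control and replicate 4 of GFP defeat, and 949 to 1869 elsewhere. GFP control thus held 1 library outside both sets, replicate 1, which is also its only female. The libraries rich in Tcf7l2 are all male, so sex and tissue content cannot be told apart within GFP control.

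All 9 members were measured in every library, with 103 reads (Pitx3, GFP control replicate 3) to 4323 reads (Nr4a2, Setd7 control replicate 2) behind each value, and all 9 passed the filter on low counts. Levels between genes were compared as normalized counts per kb of exon. En1 was the highest at 913 ± 386 (SD, n = 13), and Otx2, which in the adult midbrain is kept by a subset of VTA dopamine neurons, was the lowest at 55.3 ± 15.5. The level per kb was 657 ± 193 for Nr4a2, 338 ± 93.0 for Lmx1b, 271 ± 99.9 for Foxa1 and 258 ± 86.9 for En2. It was 165 ± 60.2 for Foxa2, 148 ± 68.4 for Pitx3 and 125 ± 33.9 for Lmx1a. Neighbours in this order were not separated between Foxa1 and En2 (9 of 13 libraries in that order), Foxa2 and Pitx3 (8 of 13), or Pitx3 and Lmx1a (8 of 13). En1 lay above Nr4a2 in 11 of 13 libraries, Lmx1b above Foxa1 in 12, En2 above Foxa2 in 12, and Nr4a2 above Lmx1b and Lmx1a above Otx2 in 13. Exon lengths come from GENCODE M21 on GRCm38 while the reads were counted on GRCm39, so the levels per kb are approximate. Pitx3 shares exon sequence with Elovl3 on the opposite strand (mean 22.4 normalized counts) and Otx2 with Otx2os1 (mean 2.82), and no source states whether strand was used in counting.

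**Figure D1:**
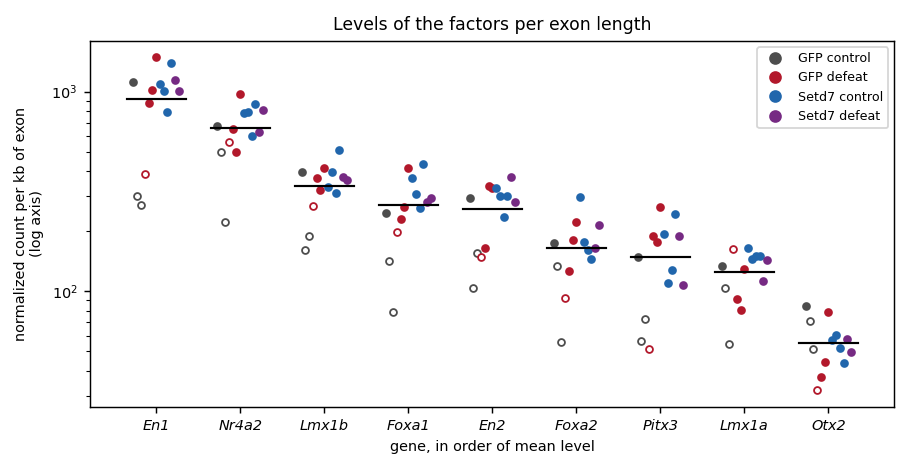
Level of each factor per kb of exon on a log axis, 1 point per library coloured by group, with the mean of the 13 libraries as a black line; open points are the 3 low-Th libraries. En1 has the highest mean at 913 and Otx2 the lowest at 55.3, and the open points lie at the bottom for Foxa1, Lmx1b, Pitx3, En1 and En2 but not for Lmx1a or Otx2.

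Among the floor plate factors, Lmx1a, a LIM homeodomain protein that starts the dopamine programme, gave 456, 351 and 185 normalized counts for the GFP control libraries in replicate order and 553, 310, 274 and 440 for the GFP defeat libraries. The Setd7 control libraries held 558, 494, 509 and 508 and the Setd7 defeat libraries 380 and 488. All 4 Setd7 control libraries lay above all GFP control libraries and above both Setd7 defeat libraries, whereas the GFP defeat libraries spanned most of the range. GFP defeat replicate 1, low in Th, held the second highest Lmx1a of all.

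Lmx1b, the paralog of Lmx1a, gave 1934, 782 and 927 for the GFP control libraries, 1308, 1791, 1566 and 2031 for those with GFP and defeat, 1625, 1921, 1523 and 2482 for Setd7 control and 1815 and 1766 for Setd7 defeat. GFP control held both the lowest libraries and, in replicate 1, one of the highest, so every other group overlapped it. The 3 low-Th libraries were the lowest in Lmx1b.

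Foxa1, a forkhead factor that opens chromatin in the floor plate and persists in adult dopamine neurons, gave 823, 472 and 262 for the GFP control libraries and 662, 766, 879 and 1374 for the GFP defeat libraries. The Setd7 control libraries held 1228, 1025, 864 and 1447 of it and the Setd7 defeat libraries 927 and 973. Every Setd7 library exceeded the highest GFP control library, while GFP defeat overlapped all other groups. Its partner Foxa2, which shares many Foxa1 targets, gave 413, 316 and 132 for the GFP control libraries, 220, 299, 430 and 525 for those with GFP and defeat, 703, 418, 383 and 344 for Setd7 control and 391 and 509 for Setd7 defeat. The groups overlapped, and the lowest Foxa2 was GFP control replicate 3.

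Promoters of the members were read from RefSeq (GRCm38.p6) as the 250 bases before and 50 after each start site. The windows of 8 members, 13 in all, were searched on both strands for the forkhead letters TGTTTAC, the NBRE AAAGGTCA bound by Nr4a2, the homeodomain core TAATTA and the bicoid-class letters TAATCC bound by Otx2 and Pitx3. These occur in 3.65%, 1.51%, 5.29% and 7.06% of 32851 mouse promoter windows. Matches fell in 3 windows, 1 of Foxa1 and 2 of Otx2. The pair printed here shows the forkhead match in the Foxa1 gene itself, on the reverse strand with its first printed base 141 bases before the start site, and the Otx2 window with the most matches of any member. That window holds 3 homeodomain cores, from 234, 174 and 154 bases before the start site, and 1 reverse bicoid-class match from 211 bases before it, and capitals mark these letters. A match describes the letters only, and no binding was measured. The Foxa1 window is chr12:57546062-57546361 and the Otx2 window chr14:48665060-48665359, both on the minus strand and printed 5′ to 3′.
Foxa1: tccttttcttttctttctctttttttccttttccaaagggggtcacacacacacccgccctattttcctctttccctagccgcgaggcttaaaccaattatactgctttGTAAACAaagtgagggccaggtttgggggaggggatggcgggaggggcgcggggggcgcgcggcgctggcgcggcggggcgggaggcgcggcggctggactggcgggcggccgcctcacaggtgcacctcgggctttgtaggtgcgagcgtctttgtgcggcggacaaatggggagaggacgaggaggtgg
Otx2: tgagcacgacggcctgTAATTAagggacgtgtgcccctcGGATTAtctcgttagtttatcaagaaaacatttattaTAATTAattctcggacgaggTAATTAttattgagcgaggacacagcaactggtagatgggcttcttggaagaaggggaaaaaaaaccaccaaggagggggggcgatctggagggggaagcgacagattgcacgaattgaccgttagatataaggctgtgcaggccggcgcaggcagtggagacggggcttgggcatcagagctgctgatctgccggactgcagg

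Otx2, a bicoid-class homeodomain factor that fixes the anterior midbrain, had its highest group mean in GFP control, 291 ± 69.7 (SD, n = 3), unlike the other 8 members. The GFP control libraries held 356, 301 and 218 of it, those with GFP and defeat 135, 157, 187 and 334, those of Setd7 control 240, 255, 219 and 184 and those of Setd7 defeat 244 and 209. The highest Otx2 was in GFP control replicate 1 and the lowest 3 in GFP defeat replicates 1 and 2 and Setd7 control replicate 4, with all groups overlapping GFP control.

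En1, an engrailed homeodomain factor that dopamine neurons need to stay alive, gave 2916, 790 and 706 for the GFP control libraries, 1019, 2298, 2664 and 3894 for those with GFP and defeat, 2876, 2646, 2065 and 3647 for Setd7 control and 2986 and 2641 for Setd7 defeat. The 3 low-Th libraries held 706 to 1019 and the other 10 held 2065 to 3894, with none in between. En2, its paralog, gave 1041, 366 and 553 for the GFP control libraries, 526, 581, 1192 and 1166 for those with GFP and defeat, 1169, 1064, 837 and 1066 for Setd7 control and 1318 and 990 for Setd7 defeat. The same 3 libraries were lowest in En2, but GFP defeat replicate 2, which is not one of them, stood just above them at 581.

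Of the factors of the newborn neuron, Nr4a2 (Nurr1), an orphan nuclear receptor needed for Th expression, gave 2727, 2026 and 899 for the GFP control libraries, 2281, 2630, 2026 and 3929 for those with GFP and defeat, 3169, 3208, 2439 and 3498 for Setd7 control and 2533 and 3295 for Setd7 defeat. A single library, GFP control replicate 3, lay far below the rest, and the groups otherwise overlapped. Pitx3, a homeodomain factor that in the brain is largely restricted to midbrain dopamine neurons, gave 226, 85.7 and 111 for the GFP control libraries, 78.4, 287, 269 and 405 for those with GFP and defeat, 294, 168, 194 and 373 for Setd7 control and 289 and 164 for Setd7 defeat. Its lowest values were those of the 3 low-Th libraries, and GFP defeat held both the lowest and the highest library of all.

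**Figure D2:**
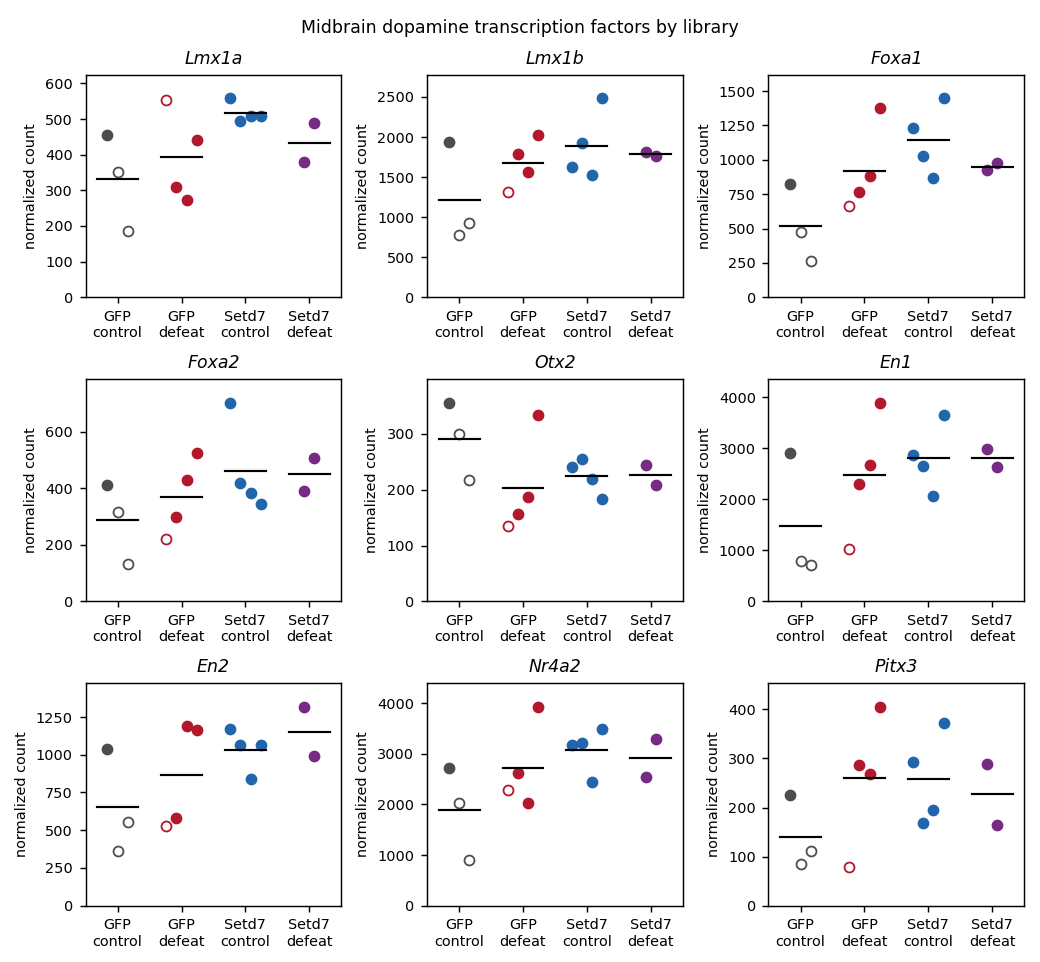
Normalized count of each factor in every library by group, with the group mean as a black line and axes from 0; open points are the 3 low-Th libraries. Setd7 control lies wholly above GFP control for Foxa1 (864 to 1447 against 262 to 823) and Lmx1a (494 to 558 against 185 to 456), and Otx2 is the only panel with its highest mean in GFP control.

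The first comparison asked what the Setd7 virus does without defeat (Setd7 control against GFP control). 8 of 9 members were higher with Setd7, against 51.4% of the 17755 genes tested, with a median log2 fold change of 0.78 on the log2(normalized count + 1) scale. None passed an adjusted p below 0.05 by limma, nor did any other gene (0.0% called). Setd7 itself went uncalled at 2.5 ± 0.4 (5.8-fold, groups apart, adjusted p = 0.467 by limma), so an uncalled gene is not shown to be unchanged. Of the 9, 6 had an unadjusted p below 0.05, against 8.01% of all genes. That count was 1 without GFP control replicate 3 or Setd7 control replicate 4, 3 without GFP control replicate 2 and 8 without GFP control replicate 1. Setd7 control replicate 4 held the least Setd7 of the Setd7 libraries, 28587 normalized counts against 81302 to 158681. Within its group that library was highest in Foxa1, Lmx1b, Nr4a2, Pitx3 and En1 and lowest in Foxa2 and Otx2. Foxa1 was higher by 1.25 ± 0.33 (SE, adjusted p = 0.539 by limma) and En1 by 1.21 ± 0.48 (adjusted p = 0.589 by limma). These are 2.38-fold and 2.31-fold. Nr4a2 was higher by 0.82 ± 0.31, En2 by 0.78 ± 0.35, Lmx1b by 0.70 ± 0.26 and Lmx1a by 0.70 ± 0.27, each also with an unadjusted p below 0.05. Pitx3 differed by 0.93 ± 0.51 and Foxa2 by 0.76 ± 0.39, with unadjusted p above 0.05. Otx2 differed by −0.35 ± 0.27 (adjusted p = 0.771 by limma). Groups did not overlap for Foxa1 and Lmx1a, 2 of 9 members, against 8.26% of all genes.

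2 of the 3 GFP control libraries are low in Th, and the members' median depended on which libraries were kept. With the 3 low-Th libraries left out, which leaves GFP control as replicate 1 alone and takes it to vary like the other groups, 5 of 9 members were higher and the median was 0.088. Leaving out GFP control replicate 1 instead gave a median of 1.23. The mean log2 value of Th, Slc6a3, Slc18a2 and Ddc (tyrosine hydroxylase, the dopamine and vesicular monoamine transporters and the decarboxylase) served as a measure of dopamine gene expression. With it as a further term in the fit the median was 0.15. These genes differed between the groups too (Th by 1.58 ± 0.57), so the term also removes any difference that members share with them. In that fit Foxa1 differed by 0.61 ± 0.28, Lmx1a by 0.71 ± 0.35, Otx2 by −0.73 ± 0.29, Pitx3 by −0.30 ± 0.22 and En1 by 0.043 ± 0.19, with adjusted p from 0.989 to 0.998 by limma. There 2 of 9 members, Foxa1 and Otx2, had an unadjusted p below 0.05, against 4.11% of all genes. In bulk tissue, fewer dopamine neurons in a punch and less RNA of these genes per neuron cannot be told apart.

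The second comparison asked what adult defeat does with the GFP virus (GFP defeat against GFP control). It shares its 3 GFP control libraries with the first, so both sets of values are given side by side and not as support for each other. 8 of 9 members were higher after defeat, against 49.6% of all genes, with a median of 0.54. None passed the test (0.0% of all genes did, by limma), and 1 of 9, or 11.1%, had an unadjusted p below 0.05, against 9.25% of all genes. That member was Foxa1, at 0.91 ± 0.33 (adjusted p = 0.456 by limma). The count was 6 of 9 without GFP control replicate 1, 4 without GFP defeat replicate 1 and 3 with no term for sex. En1 differed by 0.90 ± 0.48, Pitx3 by 0.79 ± 0.51, Nr4a2 by 0.60 ± 0.31 and Lmx1b by 0.54 ± 0.26. En2 differed by 0.43 ± 0.35, Foxa2 by 0.42 ± 0.39 and Lmx1a by 0.26 ± 0.27. Otx2 was again the exception, at −0.58 ± 0.27 (adjusted p = 0.545 by limma). No member had groups that did not overlap (9.0% of all genes did). Without the 3 low-Th libraries 2 of 9 members were higher, with a median of −0.089, and with the dopamine term the median was 0.067 and Otx2 was at −0.85 ± 0.27 (adjusted p = 0.712 by limma).

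**Figure D3:**
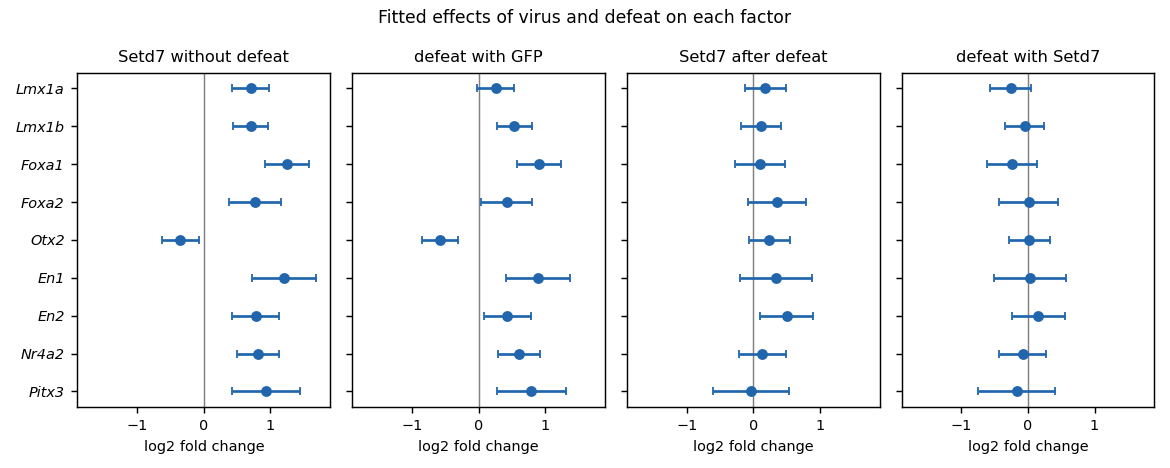
Log2 fold change of each factor in the 4 comparisons between groups, with bars of 1 SE from limma. In the first comparison 8 of 9 factors lie right of 0, from 0.70 to 1.25, in the second 8 of 9, from 0.26 to 0.91, and in the other 2 all lie between −0.26 and 0.50.

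The remaining comparisons asked whether Setd7 matters after defeat and whether defeat matters with Setd7. With Setd7 after defeat (Setd7 defeat against GFP defeat), members ranged from −0.033 ± 0.58 (Pitx3) to 0.50 ± 0.40 (En2), with a median of 0.18 and 8 of 9 higher (50.8% of all genes). 0 of 9 had an unadjusted p below 0.05, against 4.85% of all genes, 0.0% of genes were called, and 0 of 9 members had groups apart against 14.1%. Setd7 itself, at 3.08 ± 0.45 with groups apart, was not called there either (adjusted p = 0.236 by limma). The tally of 8 of 9 members higher became 5 of 9 without GFP defeat replicate 1 (median 0.036). It was 6 of 9 without the 3 low-Th libraries (median 0.078) and 6 of 9 with the dopamine term (median 0.047). Without GFP defeat replicate 2, 3 or 4, each left out singly, it was 9 of 9 (medians 0.11 to 0.38). For defeat with Setd7 (Setd7 defeat against Setd7 control), members ranged from −0.26 ± 0.31 (Lmx1a) to 0.15 ± 0.40 (En2), with a median of −0.050 and 4 of 9 higher (48.0%). 0 of 9 had an unadjusted p below 0.05, against 2.59% of all genes, 0.0% were called, and Lmx1a was the member of 9 whose groups did not overlap, against 9.14%. Setd7 defeat has 2 libraries, so these ranges rest on a small group.

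The difference between the virus effects with and without defeat was tested as an interaction, in which 0.0% of genes were called by limma. Foxa1 had the lowest value, −1.15 ± 0.50 (adjusted p = 0.942 by limma), and it was the 1 of 9 members with an unadjusted p below 0.05, against 4.96% of all genes. Otx2 had the highest, 0.59 ± 0.41, and was the 1 member above 0 (50.1% of all genes), with a median of −0.59 over the 9. That direction turned without the 3 low-Th libraries (6 of 9 above 0, median 0.10) and without the 3 rich in Tcf7l2 (8 of 9, median 0.30). The count with an unadjusted p below 0.05 was 4 without GFP control replicate 1. For no member was the Setd7 effect shown to differ by defeat. Averaged over defeat, the Setd7 effect ranged from −0.057 for Otx2 to 0.77 for En1, with 8 of 9 above 0 (51.0% of all genes) and a median of 0.48. Of the 9, 2 had an unadjusted p below 0.05 (Foxa1 and En2, against 7.12% of all genes), and none was called (0.00563% of all genes by limma, which is Setd7 alone). That count was 7 without GFP control replicate 1, likewise 7 without replicate 4 of GFP defeat, and 5 with no term for sex. Averaged over virus, the defeat effect ranged from −0.28 for Otx2 to 0.46 for En1, with 7 of 9 above 0 (50.3% of all genes), 0 with an unadjusted p below 0.05 (5.18%) and 0 called (0.0%). Here 1 of 9 was above 0 without the 3 low-Th libraries (median −0.052) and 0 of 9 without the 3 rich in Tcf7l2 (median −0.22), while 4 had an unadjusted p below 0.05 without GFP control replicate 1. Between females and males the members differed by −0.062 (Pitx3) to 0.21 (Lmx1a), with 7 of 9 above 0 in females (48.9% of all genes), 0 of 9 at an unadjusted p below 0.05 (3.87%) and 0 called (0.062%). The tally above 0 was 0 of 9 without the 3 low-Th libraries (median −0.060) and 1 of 9 without GFP control replicate 1 (median −0.20). It was 3 of 9 without GFP control replicate 3 or without the 3 libraries rich in Tcf7l2. In the other direction, the tally reached 9 of 9 with the dopamine term (median 0.096). It was also 9 of 9 without GFP defeat replicate 1 (median 0.20) or replicate 4 (median 0.21). edgeR and DESeq2 on the recovered reads also called none of the 9 in any of these 8 comparisons, although DESeq2 gave Pitx3 no adjusted p for Setd7 without defeat. Of all genes edgeR called 0.00563% for Setd7 averaged over defeat, 0.0563% for sex and 0.0% in the other 6. In the order given here DESeq2 called 0.197%, 0.479%, 0.0338%, 0.0394%, 0.00563%, 0.0394%, 0.0451% and 0.0957%. These shares are of all 17755 genes, of which DESeq2 gave no adjusted p to 6540 in the first comparison and 3443 in the second.

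Between single libraries the factors divided by how closely they followed the dopamine genes. The 3 low-Th libraries were the 3 lowest of 13 for Foxa1, Lmx1b, Pitx3, En1 and En2, that is 55.6% of members, and for 1.46% of all genes tested. For Foxa2 and Nr4a2, 2 of those libraries were among the lowest 3, and for Lmx1a and Otx2, 1. The highest library held 5.53 times the lowest for Foxa1, 5.52 times for En1, 5.31 for Foxa2, 5.16 for Pitx3 and 4.37 for Nr4a2, and 3.61 for En2, 3.18 for Lmx1b, 3.01 for Lmx1a and 2.63 for Otx2. Over the 10 other libraries these ratios shrank to between 1.63 (Lmx1b) and 2.47 (Pitx3).

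Since the 3 low-Th libraries form a cluster of their own, correlations with the dopamine measure were computed over the other 10 libraries, 9 in all, with permutation p-values adjusted by Benjamini-Hochberg. Pitx3 followed it closely, with Pearson r = 0.897 (permutation p = 0.00037, adjusted 0.00333) and Spearman rho = 0.879 (p = 0.00159, adjusted 0.0143). Without the 2 libraries farthest from the median, Setd7 control replicate 4 and GFP defeat replicate 4, the Pitx3 r was 0.861. En1 had r = 0.797 (permutation p = 0.00733, adjusted 0.033) and rho = 0.673 (p = 0.0388, adjusted 0.174). Without those 2 its r fell to 0.341, so the r of 0.797 depended on them. The 8 libraries then left spanned 13.4 to 13.9 of the dopamine measure, against 14.2 and 14.4 in those 2. A weaker relation and the narrower range cannot be told apart there. The adjusted permutation p of En1 was also above 0.05, from 0.054 to 0.158, without GFP defeat replicate 3 or 4, Setd7 control replicate 1, 3 or 4, or Setd7 defeat replicate 1, each left out singly. Foxa1 had r = 0.735 (permutation p = 0.018, adjusted 0.054, rho 0.442, p = 0.205) and Lmx1b r = 0.685 (p = 0.0295, adjusted 0.0664, rho 0.467, p = 0.178), and neither held without the same 2 (r of 0.054 and −0.087). Nr4a2 had r = 0.495 and En2 0.207, with adjusted permutation p-values of 0.273 and 0.856. Foxa2, Lmx1a and Otx2 had r of −0.061, −0.018 and −0.083 with rho of −0.10, −0.24 and −0.29 (adjusted permutation p = 0.965 for each r).

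The log2 ratio of each member to the dopamine measure varied least over the 13 libraries for En1, from −2.61 to −1.82, and then for Pitx3, from −6.18 to −5.12. For Lmx1a it was −2.70 in GFP defeat replicate 1 and −5.57 to −3.51 elsewhere, and for Foxa1 −2.45 there and −4.19 to −3.08 elsewhere. That library had the lowest dopamine measure, 11.8, which raises every ratio in it, and it held the highest ratio for 6 of the 9 members, those 2 and Lmx1b, Nr4a2, En1 and En2. For Otx2 the ratio spanned −6.84 to −3.73.

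**Figure D4:**
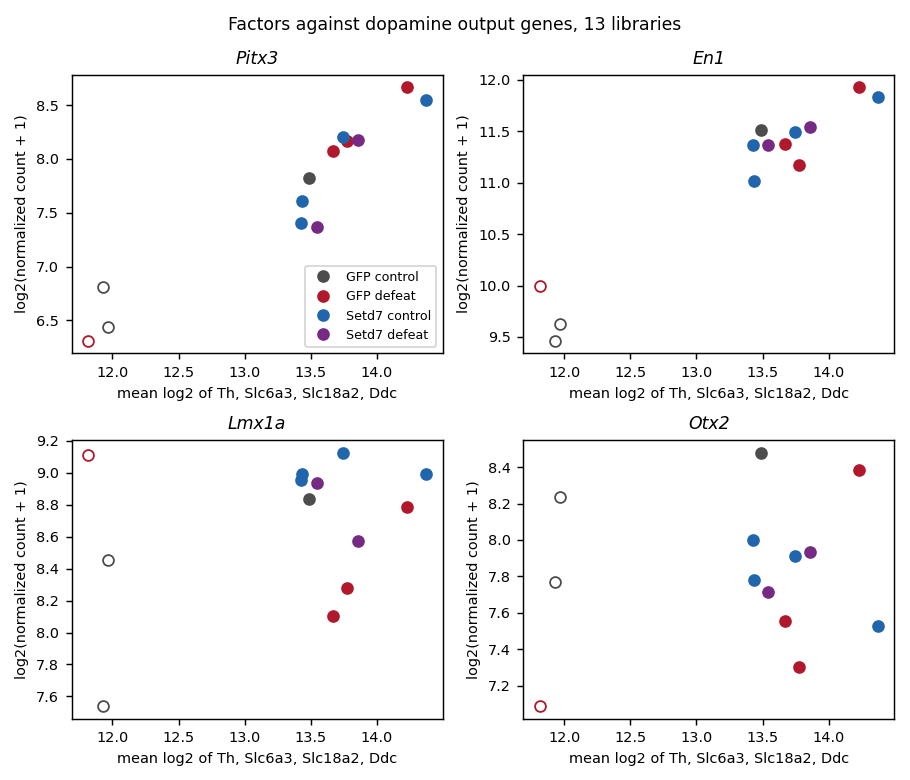
Pitx3, En1, Lmx1a and Otx2 on the log2(normalized count + 1) scale against the mean log2 value of Th, Slc6a3, Slc18a2 and Ddc, 1 point per library coloured by group, open points for the 3 low-Th libraries. Over the 10 filled points r is 0.897 for Pitx3, 0.797 for En1, −0.018 for Lmx1a and −0.083 for Otx2.

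The genes whose pattern over the 13 libraries was most like each member, by Pearson r, were named as the top 3 of 13884 genes compared. These are a ranking and carry no test, and part of each r comes from the 3 low-Th libraries. For En1 they were Chrna6 (0.991), Chrnb3 (0.981), both nicotinic receptor subunits of dopamine neurons, and Syt17 (0.980). For Pitx3 they were Ddc (0.966), Slc18a2 (0.962) and Slc10a4 (0.950), and over the 10 other libraries these kept r of 0.913, 0.872 and 0.855. Foxa1 was nearest to Dlk1 (0.964), Ntsr1 (0.958) and Syt17 (0.957), and Lmx1b to Gfra1 (0.958), a receptor of GDNF, Cadps2 (0.946) and Aldh1a7 (0.937). Nr4a2 was nearest to the cadherin Cdh11 (0.964), Satb1 (0.950) and Cdh13 (0.950), and En2 to Jpt2 (0.938), Casr (0.923) and Tacr3 (0.921). Foxa2 was nearest to Dram2 (0.900), Otx1 (0.894) and Isoc1 (0.889), and Lmx1a to Dmrtb1 (0.912), Thumpd1 (0.900) and Stox1 (0.895). Over the 13 libraries Otx2 had the lowest top values, with Kcnmb1 (0.857), Kif6 (0.835) and Cep126 (0.834), but over the 10 others its r was 0.914, 0.896 and 0.781 with them. Over those 10 the genes named for the remaining 7 members had r from 0.621 (Isoc1 with Foxa2) to 0.933 (Syt17 with Foxa1). Among the members themselves, r over 13 libraries was highest between Foxa1 and Nr4a2 and between Lmx1b and En1 (0.933 each), and 0.776 and 0.740 over the 10. Otx2 reached at most 0.386 over the 13, with Foxa2, and at most 0.498 over the 10, with En2.

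Other genes of the pathway were taken from lists and tested in the same fits, and 0 genes of any list were called in any comparison. Of 20 genes of dopamine synthesis, transport and identity, Th among them, 20 were higher with Setd7 without defeat (51.4% of all genes), with a median of 0.98 and 15 at an unadjusted p below 0.05 (8.01% of all genes). After defeat with GFP 20 of 20 were higher (49.6%), with a median of 0.83 and 5 such genes (9.25%). Their sum followed the low-Th libraries: it was 57424 and 46840 normalized counts in GFP control replicates 2 and 3 and 56890 in GFP defeat replicate 1. In GFP control replicate 1 it was 124038, within the 119353 to 208598 of Setd7 control. Of 23 further factors and partners, such as Nr4a relatives, retinoid X receptors and Ebf factors, 17 were higher with Setd7 without defeat, with a median of 0.096. Only Ebf3 (0.53 ± 0.14) and Satb1 (0.47 ± 0.20), 2 of 23, had an unadjusted p below 0.05, against 8.01% of all genes. After defeat with GFP 18 of the 23 were higher (median 0.14). Satb1 (0.46 ± 0.20), Nr4a3 (0.44 ± 0.18) and Bcl11a (−0.42 ± 0.19), 3 of 23, had an unadjusted p below 0.05, against 9.25% of all genes. Of 20 tested signals of the floor plate and isthmus, 9 and 14 were higher in these comparisons, with medians of −0.003 and 0.054. Ptch1, the Hedgehog receptor, differed by 0.27 ± 0.071 after defeat with GFP. Wnt5a, a secreted signal, differed by 0.30 ± 0.13 in both comparisons, each of these 3 differences with an unadjusted p below 0.05. They were 1 of 20 signals with Setd7 without defeat and 2 of 20 after defeat with GFP, against 8.01% and 9.25% of all genes.

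Markers of other cells that may hold a member moved as follows, and their part in the members' differences was not tested. With Setd7 without defeat, 8 of 8 thalamus markers were lower (median −0.85), as were 8 of 9 tested tectum and cerebellum markers (−1.13) and 7 of 7 serotonin markers (−0.34). Of all genes, 51.4% were higher there. An unadjusted p below 0.05 was found for 4 of 8, 3 of 9 and 0 of 7 of them, against 8.01% of all genes. Tcf7l2, a thalamus marker, differed by −2.21 ± 0.47 with groups apart (adjusted p = 0.539 by limma). After defeat with GFP, 8 of 8 thalamus markers (median −0.71) and 8 of 9 tectum and cerebellum markers (−0.79) were lower, and 4 of 7 serotonin markers were higher (0.28). Here 49.6% of all genes were higher, and 3 of 8, 0 of 9 and 0 of 7 had an unadjusted p below 0.05, against 9.25% of all genes. Summed thalamus markers ran from 11706 to 45727 normalized counts in GFP control, 10419 to 22890 in GFP defeat, 10302 to 11017 in Setd7 control and 10197 to 11599 in Setd7 defeat. Summed tectum and cerebellum markers ran from 2333 to 5683, 1044 to 3463, 894 to 2032 and 1385 to 3654 in the same order. Summed serotonin markers ran from 4592 to 14471, 8202 to 17464, 5299 to 8158 and 10657 to 18282. The tectum and cerebellum sum of 5683, in GFP control replicate 2, was mostly Zic1 (3711) and Zic2 (1608). Pax7, of the same list, went the other way, at 90.0 in that library and 1205 in GFP control replicate 1. After defeat with Setd7, 7 of 7 serotonin markers were higher (median 0.79), against 48.0% of all genes. Of these, 3 of 7 had an unadjusted p below 0.05, against 2.59% of all genes. Setd7 defeat has 2 libraries, with serotonin sums of 18282 (replicate 1) and 10657 (replicate 2). The members that serotonin neurons also use differed after defeat with Setd7 by −0.050 ± 0.30 (Lmx1b), 0.029 ± 0.54 (En1) and 0.15 ± 0.40 (En2). Subthalamic and supramammillary markers were higher in 2 and 3 of 6 tested in the first and second comparisons, and summed to 3863 to 4833, 3245 to 5132, 3326 to 4227 and 4123 to 4138, with Dbx1 at 0 in all 13 libraries. Choroid plexus markers were higher in 4 and 7 of 9 tested and summed to 468 to 599, 436 to 1319, 560 to 1197 and 619 to 1475. Habenula markers were higher in 2 and 1 of 5 and summed to 1736 to 2938, 2250 to 3842, 3017 to 4182 and 2935 to 3235. Nwd2 made up most of each habenula sum, as with 2472 of 2938 in GFP control replicate 1 and 3984 of 4182 in Setd7 control replicate 4. The medians of the 5 habenula markers were −0.20 and −0.57 in the first and second comparisons. Motor and red nucleus markers were higher in 4 and 3 of 6 tested and summed to 595 to 882, 266 to 1084, 511 to 1698 and 491 to 944. GABA neuron markers were higher in 4 and 4 of 8 and summed to 30938 to 43939, 33337 to 48506, 34704 to 46856 and 43920 to 45846. Without the 3 libraries rich in Tcf7l2, which again leaves GFP control as replicate 1 alone, the members' median was 0.019 with Setd7 without defeat and −0.37 after defeat with GFP, where 0 of 9 members were then higher. Otx2 then stood at −1.14 ± 0.26 after defeat with GFP (adjusted p = 0.418 by limma). The libraries left out include GFP defeat replicate 4, which had the highest dopamine measure of its group, 14.2. For Setd7 after defeat, 9 of 9 members were higher without the 3 libraries rich in Tcf7l2, with a median of 0.34. Leaving out GFP defeat replicate 4 alone likewise gave 9 of 9 and a median of 0.38 (50.2% of all genes higher). Without the 3 low-Th libraries it was 6 of 9, with a median of 0.078.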

How the data were processed

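Total RNA of 13 VTA punches was extracted with a micro column kit and depleted of ribosomal RNA, per the labels' protocols. Bowtie2, featureCounts, DESeq2 and the build GRCm39 are named in the submitters' processing notes, and versions and strand setting are not given in the sources used here. The deposited values are a signal scale, reads per gene divided by a size factor for each library. Whole reads were recovered from them, and 100% of 341432 values came within 0.01 of a whole read. Libraries were grouped by the virus and stress labels.

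Genes with at least 10 normalized counts in at least 2 libraries (17755) were tested with limma 3.58.1 in R 4.3.3 on log2(value + 1), with terms for the 4 groups and sex, p-values adjusted by Benjamini-Hochberg over all genes tested and a threshold of 0.05. The fold change on this scale understates that of low genes. The script was tested on simulated data. Correlations used 100000 permutations. The members and gene lists were chosen with earlier results of these data known. Named genes are the members, up to 4 genes per list with the smallest p, and the 3 genes most like each member with a mean of at least 30 normalized counts. Alternatives were TMM and total-count scaling, pseudocounts of 0.5 and 5, no filter or one at 50, no sex term, a dopamine term, compared groups only, edgeR 4.0.16, DESeq2 1.42.0, and libraries left out. En2 had no promoter entry, and protein sequences are not used here. Results of 1 further gene are not reported here.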

Additional observations from a re-analysis of the deposited data

How the results depend on the processing

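No paired analysis was possible because the labels carry a separate library number for each sample and no replicate number shared between groups. None of the 9 members passed adjusted p = 0.05 under any alternative run, 26 for each comparison between 2 groups, 25 for the interaction and each average and 24 for sex; DESeq2 gave Pitx3 no adjusted p for Setd7 without defeat. TMM and total-count scaling, both pseudocounts, both filters, the sex term, the compared groups alone, edgeR and DESeq2 reversed no gene named with a fold change, except that En1 for defeat with Setd7 was −0.004 by DESeq2. Where values moved, the cause was not tested beyond the values given.

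DESeq2 called 35 genes for Setd7 without defeat, 85 for defeat with GFP, 6 for Setd7 virus after defeat, 7 for defeat with Setd7, 1 in the interaction, 7 for Setd7 averaged, 8 for defeat averaged and 17 for sex, against 0, 0, 0, 0, 0, 1, 0 and 11 by limma. With no filter limma called 1 gene in each of the pairwise comparisons of Setd7 defeat, and with the compared groups only 2 for Setd7 after defeat. Setd7 averaged over defeat called 0 with the dopamine term, without the 3 low-Th libraries and without the 3 Tcf7l2-rich ones.

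With the dopamine term the members' medians were 0.15 (Setd7 without defeat), 0.067 (defeat with GFP) and −0.043 (interaction), Pitx3 reversed to −0.30 and −0.082 in the first 2, and En2 to −0.034 for defeat with GFP. Without the 3 low-Th libraries the medians were 0.088, −0.089 and 0.10. For Setd7 without defeat Lmx1b, En1 and En2 then stood at −0.088, −0.14 and −0.074. For defeat with GFP Foxa2, Lmx1a, Lmx1b, Nr4a2, En1 and En2 stood at −0.038, −0.52, −0.15, −0.025, −0.089 and −0.23, and En1 at −0.077 for Setd7 averaged and −0.030 for defeat averaged. Without the 3 Tcf7l2-rich libraries the medians were 0.019, −0.37, 0.30 and, for defeat averaged, −0.22. Lmx1b, En1 and En2 then stood at −0.094, −0.19 and −0.087 for Setd7 without defeat. For defeat with GFP Foxa1, Foxa2, Lmx1a, Lmx1b, Nr4a2, Pitx3, En1 and En2 stood at −0.14, −0.46, −0.30, −0.35, −0.23, −0.37, −0.73 and −0.59, Satb1 at −0.076, Pitx3 for Setd7 after defeat at 0.22 and En1 for defeat averaged at −0.35.

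With each library left out in turn, genes called ranged from 0 to 4 for Setd7 without defeat (4 without GFP control replicate 1), 0 to 23 for Setd7 virus after defeat, 0 to 18 for defeat with Setd7, 0 to 3 in the interaction, 1 to 3 for Setd7 averaged and 0 to 4 for defeat averaged, the highest of the last 5 all without Setd7 defeat replicate 2. That leaves 1 library in its group, taken to vary like the other groups. The members' medians ranged from 0.59 to 1.23 for Setd7 without defeat, 0.34 to 1.01 for defeat with GFP, 0.036 to 0.38 for Setd7 after defeat, −0.13 to 0.019 for defeat with Setd7, −1.07 to −0.24 in the interaction, 0.35 to 0.74 and 0.13 to 0.49 for the averages and −0.20 to 0.21 for sex. Members that changed sign ranged from −0.050 to 0.87 (Foxa2) and −0.077 to 0.55 (Lmx1a) for defeat with GFP, −0.58 to 0.49 (Pitx3, Setd7 after defeat), −0.60 to 0.078 (Lmx1a), −0.15 to 0.13 (Lmx1b), −0.10 to 0.20 (En1) and −0.061 to 0.37 (En2) for defeat with Setd7, and −0.16 to 0.076 (Otx2, Setd7 averaged). Correlations with the dopamine measure ranged from −0.26 to 0.22 (Foxa2), −0.25 to 0.075 (Lmx1a) and −0.46 to 0.18 (Otx2), and 1 to 4 members passed against 2. Pitx3 kept r of 0.859 to 0.929. Fewest reads, 103, lay behind Pitx3.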
